A study of Homo sapiens with 3 samples.

Results

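The genes described here are 50 genes of mitosis and of the spindle, named as a list and found on the arrays by their exact gene name. They were grouped by role into cyclins and mitotic kinases, genes of the spindle checkpoint and of anaphase, kinesins, centromere and kinetochore proteins, and other proteins of the spindle, of cytokinesis and of chromosomes. Of the 50 genes, 44 had a probe that could be used, out of 17446 genes measured in all. YB5 cells are 1 clone derived from the colon cancer line SW48, and every group shares a single copy of a GFP reporter whose CMV promoter is methylated and silent. The cells were given decitabine at 25 nM, a DNA methylation inhibitor, carboplatin at 20 μM, a platinum drug that crosslinks DNA, or both drugs at these doses, with 4 doses spread over days 1 to 4 and harvest on day 6. Control cells received the diluent, DMSO, by the series description and the sample characteristics, while the sample titles and the study call them untreated. These doses are those of the sample labels. For these arrays the text of the study gives carboplatin at 25 μM, while a figure caption of the study gives 20 μM.

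Each treatment was measured on 1 two-colour Agilent array of the whole genome, 3 arrays in all. On every array the treated RNA carried Cy3 and the control RNA carried Cy5. No array had its dyes swapped, and each change therefore includes any dye bias of its probe. A change is given as log2 of the treated over the control signal of the same array, and a gene is called lower or higher at a ratio of at least 1.5. With 1 array per treatment there was no replicate error, no test was run, and precision is limited by this number of arrays. Values of the 3 arrays are given in the order labelled decitabine, labelled carboplatin and both drugs. The sources do not say whether 1 control extract served all arrays, so the comparisons may share their control.

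The median control signal was 321, 311 and 280 units over 39012 spots per array, and 65, 68.4 and 68.4 % of these spots were well above background in the treated channel. The pooled SD of the log2 change over 264 probes that were spotted 10 times was 0.0776, 0.0748 and 0.0757, which is error within an array only. Spots in columns 1 to 9, 10.1 % of spots, were left out on every array, because on the array labelled decitabine their median change was 0.75 when kept, against -0.02 in its other columns. All 44 measured genes were well above background in both channels on every array. Of 7 markers of colon epithelium 6 were measured and all 6 were well above background in control cells. Their signals differed widely, with KRT18 at 83100 to 89500 and CDH1 at 15700 to 15900 units, but VIL1 at 275 to 286 units. KRT8 read 147 to 156 units, no higher than COL1A1 of fibroblasts at 143 to 160 units. Among markers of other cells, PTPRC of leukocytes and COL1A2, COL3A1 and DCN of fibroblasts were not above background, while CD3E, CD14 and COL1A1 read 94.7 to 160 units.

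Sample labels alone name the arrays throughout. The study names genes of cell division, of the cell cycle and of DNA replication as lowered by carboplatin. These categories are pooled here as the study's list, which was chosen on these samples, and 11 of the genes described here stand in it. Among them PRC1 stands only in the cell cycle category and TOP2A only in that of DNA replication. Of these 11 genes, 10, 1 and 10 were lower by at least 1.5-fold on the 3 arrays. The labels and that list therefore point to different arrays, no array was reassigned, and every direction given below for a drug rests on the sample label alone.

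Entry into mitosis is driven by CDK1 with its cyclins, which CDC25 phosphatases activate and which polo and Aurora kinases assist. Kinetochores assemble on centromeres that carry the histone variant CENPA and tie chromosomes to spindle microtubules, and the spindle checkpoint holds back the anaphase-promoting complex until every chromosome is attached. Most of these genes are transcribed in G2 and M phase. Many of their promoters carry CCAAT boxes, which bind NF-Y, and an element called CHR, spelled TTTGAA here, or TTCGAA in a rarer form, through which the DREAM and MuvB complexes act. In bulk RNA a smaller share of cells in mitosis and less RNA per cell cannot be told apart.

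The promoters of 6 genes are shown because their messages carry the comparison and because they differ in how these letters are arranged. Other arrangements, such as CHR letters without CCAAT in NDC80, NUF2 and KIF15, are not shown. The 150 bases before the start are given 5′ to 3′ on the strand of the gene, from RefSeq on GRCh38.p14, and capitals mark CCAAT boxes and the CHR letters on either strand. CCNB2 (chr15:59104996-59105145, plus strand) held CCAAT at 120, 87 and 54 bases before the start, in steps of 33 bases, and TTTGAA at 29 bases. PLK1 (chr16:23678739-23678888, plus strand) and KIF18A (chr11:28108157-28108306, minus strand) each held 1 CCAAT upstream of 1 TTTGAA. CDC20 (chr1:43358831-43358980, plus strand) had its TTTGAA between CCAAT boxes at 100 and 55 bases before the start. CCNB1 (chr5:69167000-69167149, plus strand) held CCAAT at 87 and 55 bases without TTTGAA or TTCGAA in this window. CENPE (chr4:103198344-103198493, minus strand) held none of these letters. Other spellings of a CHR were not searched, so neither promoter is shown to lack one.
CCNB2: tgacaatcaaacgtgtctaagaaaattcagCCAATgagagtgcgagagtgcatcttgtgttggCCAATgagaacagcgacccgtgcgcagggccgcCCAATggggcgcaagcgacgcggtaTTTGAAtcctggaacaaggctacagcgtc
PLK1: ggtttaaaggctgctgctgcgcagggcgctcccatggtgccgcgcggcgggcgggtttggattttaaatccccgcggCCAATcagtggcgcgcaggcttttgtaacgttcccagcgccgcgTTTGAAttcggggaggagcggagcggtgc
KIF18A: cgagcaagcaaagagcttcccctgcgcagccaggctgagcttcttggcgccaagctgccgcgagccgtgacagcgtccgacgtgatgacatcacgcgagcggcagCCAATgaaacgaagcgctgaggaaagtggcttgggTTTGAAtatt
CDC20: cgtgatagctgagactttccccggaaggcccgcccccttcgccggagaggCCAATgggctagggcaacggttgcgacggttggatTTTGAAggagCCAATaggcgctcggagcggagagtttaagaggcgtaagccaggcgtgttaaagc
CCNB1: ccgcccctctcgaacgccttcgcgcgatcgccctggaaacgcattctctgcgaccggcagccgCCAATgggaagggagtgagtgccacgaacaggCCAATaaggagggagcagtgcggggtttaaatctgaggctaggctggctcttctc
CENPE: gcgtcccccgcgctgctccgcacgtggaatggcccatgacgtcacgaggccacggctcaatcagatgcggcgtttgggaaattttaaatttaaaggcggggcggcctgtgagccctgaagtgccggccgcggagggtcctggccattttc

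Searched over the window from 250 bases before to 50 after the start, both strands, 70.9 % of 55 promoters of these genes held CCAAT, against 34.6 % of all 35116 promoters in the table and 34.7 % of the 22199 promoters of protein-coding genes. The CHR letters of either form stood in 67.3 % of the 55 promoters, 16.4 % of all promoters and 13.7 % of those of protein-coding genes. Both kinds stood in 52.7 %, 6.38 % and 5.48 % in the same order. A match of letters is a description and not a site. The table held promoters for 42 of the 50 genes, 8 of them with several, and none for AURKA, BIRC5, BUB3, CENPM, FOXM1, TPX2, TTK and UBE2C. Medians were close between genes with and without these letters. The 29 measured genes with CHR letters had median log2 changes of -1.01, -0.17 and -1.07, and the 8 measured genes with a promoter but without these letters had medians of -1.04, -0.09 and -1.06. CCNB1 and CENPE, which lacked TTTGAA and TTCGAA, were among the lowest genes of their groups on the array of both drugs. PLK1 and CCNB2, which held TTTGAA, were so too. The class without these letters is small and rests on these spellings alone. Whether a CHR has a part in the changes was not tested.

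Most of the mitosis and spindle genes were lower on the decitabine-labelled and both-drug arrays, and few on the carboplatin-labelled array. On the array labelled decitabine 38 of 44 genes were lower by at least 1.5-fold, where 4.9 % of all genes were. On the array of both drugs the count was also 38 of 44, against 5.82 % of all genes. On the array labelled carboplatin 1 of 44 genes, ASPM, was lower that far, against 1.43 % of all genes. None of the 44 was higher by 1.5-fold on any array, where 5.07, 2.75 and 7.38 % of all genes were higher. At 2-fold, 21, 0 and 23 of the 44 genes were lower, against 1.09, 0.0344 and 1.32 % of all genes. Restricted to genes well above background in both channels, the share of all genes lower by 1.5-fold was 6.79, 1.96 and 7.95 %.

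The median log2 change of the 44 genes was -0.99, -0.16 and -1.04, against medians of 0, 0 and 0.01 over all genes. The change was below 0 for 44, 32 and 44 of them, where 50.3, 50.8 and 49 % of all genes were below 0. The middle of the list lay between quartiles of -1.30 and -0.82 on the first array, -0.31 and 0.02 on the second and -1.31 and -0.75 on the third. The treated signal was below the control signals of all 3 arrays for 44, 29 and 44 genes, where this held for 37.1, 36.9 and 38.4 % of all genes, and above all 3 for 0, 10 and 0 genes, against 37.7, 36.2 and 37.8 %. On the array labelled carboplatin 27 of the 44 genes stood within 0.25 of no change. The quartiles of all genes there were -0.14 and 0.14, so standing that close was common among all genes. The share of all genes within 0.25 was not counted. The control signals themselves differed little between arrays, by a median of 0.10 and by at most 0.30 on the log2 scale. Among all genes past 1.5-fold, the higher ones made up 50.9, 65.7 and 55.9 %, which became 24.2, 31.9 and 16.9 % when arrays were centred on their median in place of loess, 38.8, 45.7 and 44.1 % in the authors' processed table, and 69.4 % on the array labelled decitabine with the edge columns kept. Under median centring 25 of the 44 genes passed 1.5-fold on the array labelled carboplatin, where 18.4 % of all genes did, so counts on that array depend on the scaling.

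**Figure D1:**
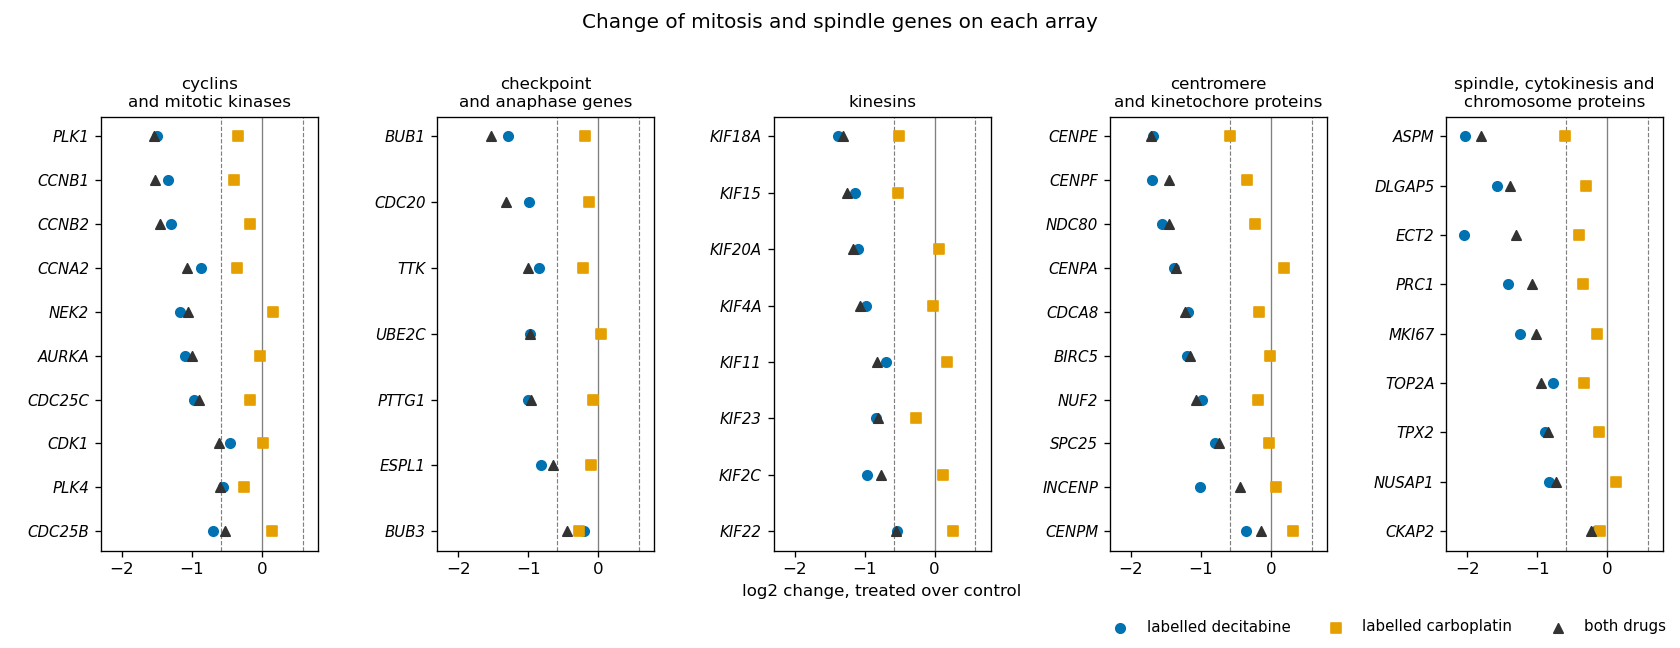
Log2 change of treated over control for each of the 44 measured genes, in 5 role groups ordered by the array of both drugs. Circles are the array labelled decitabine, squares the array labelled carboplatin and triangles the array of both drugs, each 1 array, with dashed lines at 1.5-fold. Circles and triangles lie together left of the squares for nearly every gene, with median changes of -0.99 and -1.04 against -0.16.

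Of the 12 cyclins and mitotic kinases, 10 were measured, and 8, 0 and 9 of them were lower by 1.5-fold, with median log2 changes of -1.03, -0.17 and -1.03. PLK1, the polo kinase of mitotic entry and spindle assembly (probe at chr16:23701628-23701687 on GRCh37, the build of all probe positions given here), had control signals of 14800, 13600 and 13600 units and treated signals of 5220, 10800 and 4700 units. The log2 changes of PLK1 were -1.50, -0.34 and -1.54, the lowest of this group on the arrays labelled decitabine and of both drugs. A second PLK1 probe read -1.28, -0.30 and -1.30, in the same order of arrays as the first.

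CCNB1 encodes cyclin B1, the partner of CDK1 at mitotic entry. Its control signals were 15700, 15100 and 15700 units and its treated signals 6230, 11500 and 5500 units (probe at chr5:68471363-68473123). The treated signal on each array was below all 3 control signals, with log2 changes of -1.34, -0.39 and -1.52. CCNB2, the second B-type cyclin, had control signals of 15200, 16400 and 15200 units and treated signals of 6210, 14600 and 5530 units (chr15:59417139-59417198), with changes of -1.29, -0.17 and -1.46. A second, dim probe of CCNB2 read -0.10, -0.36 and -0.28, so the probes of this gene differ in size and in the order of the arrays. CCNA2, the cyclin of S and G2 phase, was spotted 10 times and its spots ranged from -0.91 to -0.85, from -0.43 to -0.32 and from -1.12 to -1.01. These ranges did not overlap. For CCNA2 and the other genes spotted 10 times, such ranges hold error within 1 array only and do not measure a difference between treatments. With the edge columns kept CCNA2 read -0.47 on the array labelled decitabine, short of 1.5-fold.

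CDK1 itself, the kinase these cyclins activate, stood closer to its controls than they did. CDK1 had control signals of 5310, 5340 and 5390 units and treated signals of 3850, 5410 and 3530 units (chr10:62552004-62553650). Its log2 changes were -0.46, 0.02 and -0.61, so it passed 1.5-fold on the array of both drugs alone. The repeated spots of CDK1 there, from -0.68 to -0.56, did not overlap those of the array labelled decitabine, from -0.50 to -0.39, again a spread within arrays only. CDC25C and CDC25B, the phosphatases that activate CDK1, read -0.97, -0.17 and -0.90 and -0.69, 0.15 and -0.52. CDC25B, the highest of its group on the array of both drugs, had control signals of 4740, 4790 and 4700 units and treated signals of 2930, 5310 and 3280 units, and it passed 1.5-fold only on the array labelled decitabine.

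AURKA, the Aurora kinase of spindle poles, had control signals of 5460, 4910 and 5050 units and treated signals of 2550, 4820 and 2530 units (chr20:54945120-54945179), with log2 changes of -1.10, -0.03 and -1.0. The treated signal on the array labelled carboplatin lay below the control signals by less than those differed among themselves. NEK2, a centrosome kinase, gave -1.17, 0.16 and -1.06. PLK4, which starts the duplication of centrioles, gave -0.55, -0.26 and -0.60, and its second probe gave -0.36, 0.18 and 0.05.

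Of the 9 genes of the checkpoint and of anaphase, 7 were measured, and 6, 0 and 6 were lower by 1.5-fold, with medians of -0.97, -0.13 and -0.97. BUB1, a checkpoint kinase at kinetochores, had control signals of 4920, 4240 and 4820 units and treated signals of 2010, 3710 and 1670 units (chr2:111395699-111397340). Its log2 changes of -1.29, -0.19 and -1.53 were the lowest of the group on the arrays labelled decitabine and of both drugs. TTK, the kinase Mps1 that starts the checkpoint signal, had control signals of 2670, 2350 and 2490 units, treated signals of 1490, 2010 and 1240 units and changes of -0.85, -0.22 and -1.0. Checkpoint signalling ends at CDC20, the activator of the anaphase-promoting complex, whose control signals were 3600, 3400 and 3640 units and treated signals 1810, 3100 and 1470 units (chr1:43826537-43826596). The log2 changes of CDC20 were -0.99, -0.13 and -1.31, and it was the one measured gene of the list that lay over 0.25 lower with both drugs than on the array labelled decitabine.

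Other genes of the group act in anaphase. PTTG1, securin, read -1.0, -0.08 and -0.96. UBE2C, which passes ubiquitin to the targets of the anaphase-promoting complex, read -0.97, 0.04 and -0.97. ESPL1, the protease separase that opens cohesin rings, read -0.81, -0.10 and -0.65, and its second probe, whose treated channel was not above background on the array labelled decitabine, read -0.21, -0.23 and -0.09. BUB3, a checkpoint protein that also has other partners, was the highest of the group on the arrays labelled decitabine and of both drugs and the lowest on the array labelled carboplatin, with control signals of 12000, 12600 and 12900 units, treated signals of 10400, 10400 and 9540 units and log2 changes of -0.20, -0.28 and -0.44. The other BUB3 probes read -0.66, -0.78 and -0.40 on the array labelled decitabine, so its brightest probe gave the smallest change there. In the same order these probes read -0.15, 0.12 and -0.61 on the array labelled carboplatin and -0.59, -0.11 and -0.27 with both drugs. The sign and rank of BUB3 on the array labelled carboplatin therefore depend on the probe.

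Of the 9 kinesins, the motors that move along or take apart spindle microtubules, 8 were measured, and 7, 0 and 7 were lower by 1.5-fold, with medians of -0.97, 0.02 and -0.94. KIF18A, which dampens chromosome movement at the spindle equator, had control signals of 933, 999 and 917 units and treated signals of 358, 699 and 369 units (chr11:28045342-28056937). Its log2 changes of -1.38, -0.51 and -1.31 were the lowest among kinesins on the arrays labelled decitabine and of both drugs. KIF15, a motor that can stand in for KIF11, had control signals of 5140, 5010 and 5180 units, treated signals of 2330, 3500 and 2180 units and changes of -1.14, -0.52 and -1.25. On the array labelled carboplatin KIF15 and KIF18A were the kinesins farthest below control, short of 1.5-fold.

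KIF20A, a motor of the central spindle, had control signals of 1960, 2010 and 1930 units and treated signals of 920, 2100 and 862 units. Its log2 changes were -1.09, 0.06 and -1.16, with spots from -1.12 to -1.04 and from -1.23 to -1.06 on the arrays labelled decitabine and of both drugs, ranges that overlap. KIF23, another motor of the central spindle, gave -0.84, -0.26 and -0.81. KIF11, the motor that pushes spindle poles apart, gave -0.69, 0.18 and -0.82, and its brighter probe, which lies in the edge columns, gave 0.34, -0.51 and -1.10 with these columns kept. KIF2C, a depolymerase at centromeres, and KIF4A, a chromokinesin, stood at -0.96, 0.12 and -0.76 and at -0.98, -0.02 and -1.06. KIF22, the other chromokinesin of the list, was the highest, with control signals of 7040, 6990 and 7060 units, treated signals of 4840, 8380 and 4820 units and changes of -0.54, 0.26 and -0.55, just short of 1.5-fold.

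All 10 centromere and kinetochore genes were measured, and 9, 0 and 8 were lower by 1.5-fold, with medians of -1.19, -0.09 and -1.19. CENPE, the kinetochore motor that carries chromosomes to the spindle equator, had control signals of 3280, 3400 and 3180 units and treated signals of 1020, 2280 and 968 units (chr4:104027339-104027398). The treated signals were 3.21-fold, 1.49-fold and 3.28-fold lower, or -1.68, -0.58 and -1.71 on the log2 scale, and its repeated spots ranged from -1.73 to -1.64, from -0.62 to -0.51 and from -1.77 to -1.65. CENPE was thus the lowest gene of the group with both drugs, its spots on that array overlapped those of the decitabine-labelled array, and its mean for carboplatin lay at the edge of the 1.5-fold limit.

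CENPF, a large kinetochore protein of G2 and M phase, had control signals of 60200, 50100 and 57100 units, treated signals of 18500, 39500 and 20800 units and log2 changes of -1.70, -0.34 and -1.46. NDC80, of the complex that grips microtubules, had control signals of 14700, 12700 and 13700 units, treated signals of 5030, 11000 and 4980 units and changes of -1.55, -0.22 and -1.46, and its second probe read -1.03, -0.12 and -1.21. NUF2 and SPC25, which belong to the same complex as NDC80, were closer to their controls at -0.98, -0.18 and -1.07 and at -0.80, -0.02 and -0.74. CENPA, the centromeric form of histone H3, gave -1.39, 0.19 and -1.35.

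The chromosomal passenger complex joins Aurora B kinase to centromeres and later to the central spindle. BIRC5, survivin, had control signals of 41200, 40000 and 41200 units and treated signals of 18000, 39700 and 18500 units (chr17:76220720-76220779), with log2 changes of -1.20, -0.01 and -1.16. In the repeated spots BIRC5 ranged from -1.24 to -1.16, from -0.06 to 0.01 and from -1.21 to -1.10, so the array labelled carboplatin stood apart from the other two, whose ranges overlapped. CDCA8, borealin, read -1.19, -0.17 and -1.22. INCENP, the scaffold of the complex, read -1.01, 0.07 and -0.44 and was 1.5-fold lower on the array labelled decitabine alone. CENPM, a protein of the inner kinetochore, was the highest of all 44 genes with both drugs and on the array labelled carboplatin, with control signals of 1820, 1990 and 1810 units, treated signals of 1430, 2480 and 1640 units and changes of -0.35, 0.32 and -0.14.

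**Figure D2:**
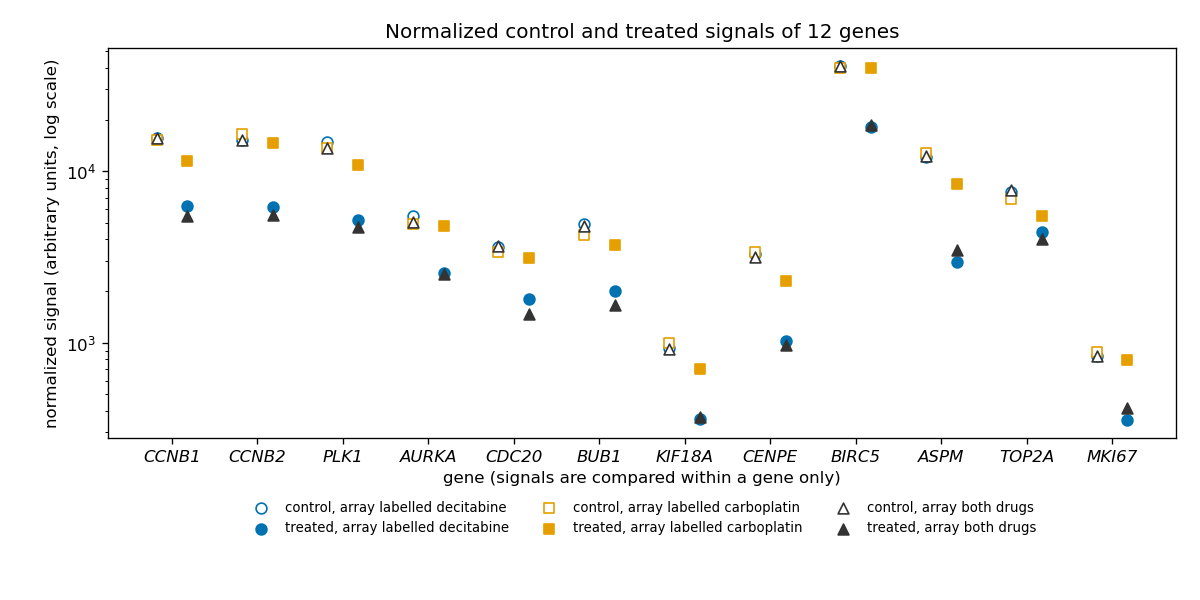
Normalized signal in arbitrary units, on a log axis, of 12 genes on the 3 arrays, with open symbols for the control channel and filled symbols for the treated channel of 1 array each. For CCNB1 the control signals lie at 15100 to 15700 units and the treated signals at 6230 (labelled decitabine), 11500 (labelled carboplatin) and 5500 (both drugs) units. Signals are to be compared within a gene only.

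Of the 10 proteins of the spindle, of cytokinesis and of chromosomes, 9 were measured, and 8, 1 and 8 were lower by 1.5-fold, with medians of -1.25, -0.30 and -1.02. ASPM, which focuses the spindle poles, had control signals of 12100, 12700 and 12200 units and treated signals of 2960, 8380 and 3480 units (chr1:197053454-197053513). The treated signals were 4.09-fold, 1.52-fold and 3.50-fold lower, or -2.03, -0.60 and -1.81 on the log2 scale, and ASPM was the lowest of all 44 genes with both drugs and on the array labelled carboplatin. A second ASPM probe read -1.54, -0.23 and -1.50 and so kept the order of the arrays but not the 1.5-fold call on the array labelled carboplatin. DLGAP5, which stabilizes the fibres at kinetochores, had control signals of 4400, 5000 and 4690 units, treated signals of 1480, 4050 and 1790 units and changes of -1.57, -0.30 and -1.39.

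ECT2, the exchange factor that turns on RhoA for cytokinesis, had control signals of 21700, 22100 and 23000 units and treated signals of 5270, 16700 and 9330 units (chr3:172539127-172539186). With log2 changes of -2.05, -0.41 and -1.31 it was the lowest gene on the array labelled decitabine and lay 0.74 higher with both drugs. This difference depends on the probe, since the other ECT2 probes read -0.76, -0.53 and -1.14 and -0.29, 0.22 and -0.46, both lower with both drugs than on the array labelled decitabine. PRC1, which bundles the microtubules of the central spindle, read -1.42, -0.35 and -1.07. TPX2, which nucleates microtubules near chromosomes and activates AURKA, read -0.89, -0.12 and -0.84, and NUSAP1, a microtubule-binding protein, -0.83, 0.13 and -0.73.

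TOP2A, topoisomerase II alpha, which untangles sister chromatids, had control signals of 7530, 6930 and 7720 units, treated signals of 4400, 5510 and 4020 units (chr17:38545709-38545768) and log2 changes of -0.78, -0.33 and -0.94. MKI67, which encodes the proliferation antigen Ki-67, had control signals of 838, 883 and 841 units, treated signals of 353, 798 and 416 units (chr10:129895641-129895700) and changes of -1.25, -0.15 and -1.02. In both genes the treated signal on every array lay below all 3 control signals. CKAP2, a microtubule-associated protein, had control signals of 234, 235 and 230 units, treated signals of 206, 219 and 196 units and changes of -0.18, -0.10 and -0.23, the smallest in size of the list on the array labelled decitabine. A brighter CKAP2 probe lies in the edge columns, and with them kept CKAP2 read 0.92 on the array labelled decitabine.

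The remaining 6 genes of the list had probes only in the edge columns and enter no count above. With those columns kept, AURKB read 0.55, 0.28 and -0.74 and FOXM1, a transcription factor of G2 and M phase genes, read 0.66, 0.20 and -0.54. BUB1B, MAD2L1, KIF14 and ANLN read 0.66, 1.09, 0.12 and 0.73 on the array labelled decitabine and -0.73, -0.47, -1.26 and -0.64 with both drugs. On the carboplatin-labelled array these 4 genes read from -0.32 to -0.09. The values on the array labelled decitabine carry the shift of its edge columns, whose median was 0.75 over all genes. On the array of both drugs, where the median change of the edge columns was 0.01, all 6 genes read below 0.

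The study asked whether decitabine and carboplatin together do more than each alone, and for these genes the array of both drugs was close to the array labelled decitabine. The median difference of the 44 genes, both drugs minus labelled decitabine, was 0.03 on the log2 scale, and 40 of the 44 differed by no more than 0.25. The exceptions were CDC20, lower by 0.32 with both drugs, and ECT2, INCENP and PRC1, higher by 0.74, 0.57 and 0.35. By 1.5-fold, ECT2 alone was higher with both drugs than on the array labelled decitabine, where 1.82 % of all genes were, and none of the 44 was lower, against 0.321 % of all genes. Few genes of any kind differed that far between these arrays, so their closeness is not particular to the genes described here. Of the 44 genes, 23 had their lowest value on the array labelled decitabine, 21 with both drugs and 0 on the array labelled carboplatin. The shares of all genes that lay within 0.25, or were lowest on each array, were not counted.

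Against the array labelled carboplatin, both drugs gave a median difference of -0.88, and 37 of the 44 genes were at least 1.5-fold lower with both drugs, where 3.36 % of all genes were. None of the 44 was 1.5-fold higher, against 4.14 % of all genes. CENPA showed a difference of -1.54, BUB1 one of -1.34 and CCNB2 one of -1.29, while CKAP2 and BUB3 differed by -0.13 and -0.16. When the log2 changes of the single drugs were added up, no gene of the list was 1.5-fold lower than that sum with both drugs, where 1.35 % of all genes were. ECT2, ASPM, PRC1 and KIF18A stood 1.15, 0.82, 0.70 and 0.59 above that sum, past 1.5-fold as 1.87 % of all genes were, and for ECT2 and ASPM this rests on the brightest probe. The second probe of ASPM differed from its sum by 0.27, and the other ECT2 probes from theirs by 0.15 and -0.39.

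**Figure D3:**
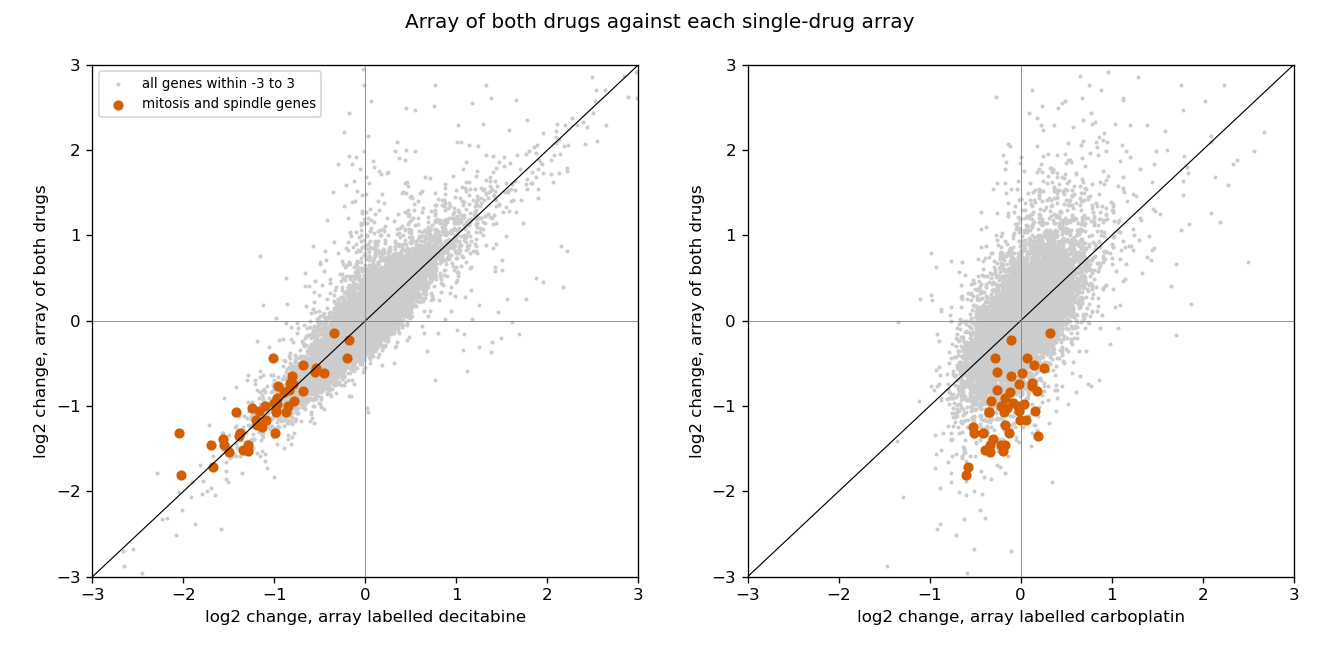
Log2 change on the array of both drugs (vertical) against the array labelled decitabine (left) and the array labelled carboplatin (right), with the 44 mitosis and spindle genes in orange over all genes within -3 to 3 in grey and a line of equal change. The orange points follow the line on the left, with a median difference of 0.03, and lie below it on the right, with a median difference of -0.88. The arrays may share their control RNA.

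Genes of mitosis outside the list were compared by 5 further lists, of which 107 of 113 genes were measured. Several of them, such as FBXO5, CIT, KIF20B, LIN9, OIP5 and NCAPH, also stand in the study's list, which was chosen on these samples. These further lists are therefore no independent evidence of direction. Together the 5 lists had 36, 1 and 41 genes lower and 2, 2 and 2 higher by 1.5-fold, with medians of -0.44, -0.01 and -0.49. Over all genes 4.9, 1.43 and 5.82 % were lower and 5.07, 2.75 and 7.38 % higher. Among other spindle and cytokinesis genes 14, 1 and 14 of 27 were lower, with medians of -0.61, -0.05 and -0.64. HMMR, which binds spindle microtubules, and CIT, a kinase of the cleavage furrow, read -1.30, -0.23 and -1.41 and -1.43, -0.15 and -1.25, while HAUS7 of the augmin complex read 0.24, 0.54 and 0.55. Of other kinetochore genes 11, 0 and 13 of 30 were lower, with medians of -0.54, -0.03 and -0.54, among them SGO2, which guards centromeric cohesion, at -1.30, -0.49 and -1.42, and CENPC, which anchors the kinetochore, at -0.86, -0.39 and -1.16. MAD1L1, a checkpoint protein, was the highest of that list with both drugs at 0.59.

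Other genes of mitotic entry had 6, 0 and 8 of 17 lower and 2, 1 and 1 higher, with medians of -0.36, 0.03 and -0.51. Among them stood BORA, which activates PLK1, at -1.03, -0.24 and -1.15, LIN9 of the MuvB complex at -0.77, -0.17 and -0.92, and PLK3, a stress-responsive polo kinase, at 2.99, 1.12 and 2.61. PLK3 thus stood above its control on all 3 arrays, where PLK1 stood below. Condensin and cohesin genes had 4, 0 and 5 of 19 lower, with medians of -0.37, 0.02 and -0.43, NCAPG at -1.15, 0.03 and -0.97, SMC2 at -0.85, -0.42 and -0.96 and ESCO1 at -0.17, 0.08 and 0.00. Subunits and regulators of the anaphase-promoting complex had 1, 0 and 1 of 14 lower, with medians of -0.08, 0.04 and 0. These counts are near the shares of all genes, 4.9, 1.43 and 5.82 %. The one lower gene was FBXO5, an inhibitor of that complex, at -0.98, -0.35 and -1.01, while CDC26 read -0.21, -0.15 and -0.50 and FZR1, the other activator of the complex besides CDC20, read 0.08, 0.49 and 0.46.

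DNA replication genes, the nearest other part of the cell cycle, had 8, 0 and 7 of 33 lower and 1, 3 and 0 higher, with medians of -0.30, 0.17 and -0.26. Of those lower on the array labelled decitabine, GINS3, POLD3, POLE2, GINS2, DUT and TK1 also stand in the study's list. MCM3 of the replicative helicase read -1.01, -0.11 and -0.96 and GINS3 -0.79, -0.09 and -0.85, while CDT1, which loads that helicase, was the highest with both drugs at 0.41. Cytoplasmic ribosomal protein genes, which have no part in the spindle, had 2, 2 and 2 of 37 lower, where 4.9, 1.43 and 5.82 % of all genes were. Their medians were -0.13, -0.20 and -0.25, RPS2 being lowest with both drugs at -0.72 and RPS19 highest at 0.39. Under median centring 28, 33 and 33 of the 37 ribosomal protein genes were lower, with medians of -0.82, -0.98 and -1.01, against -1.46, -0.64 and -1.47 for the mitosis and spindle genes. The mitosis and spindle genes were the lowest of these lists by median on the arrays labelled decitabine and of both drugs. On the array labelled carboplatin the ribosomal protein genes were lower than they, at -0.20 against -0.16, and more so under median centring. There the order turned round with the scanner software's ratio (-0.01 against -0.18) and in the authors' table (-0.09 against -0.27). With the mean over probes the medians were -0.15 and -0.16. The medians above 0 on the array labelled carboplatin, those of kinesins, condensin and cohesin, the anaphase-promoting complex, mitotic entry and DNA replication, turned negative under median centring (-0.32 for DNA replication), and all but the last did so in the authors' table too.

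**Figure D4:**
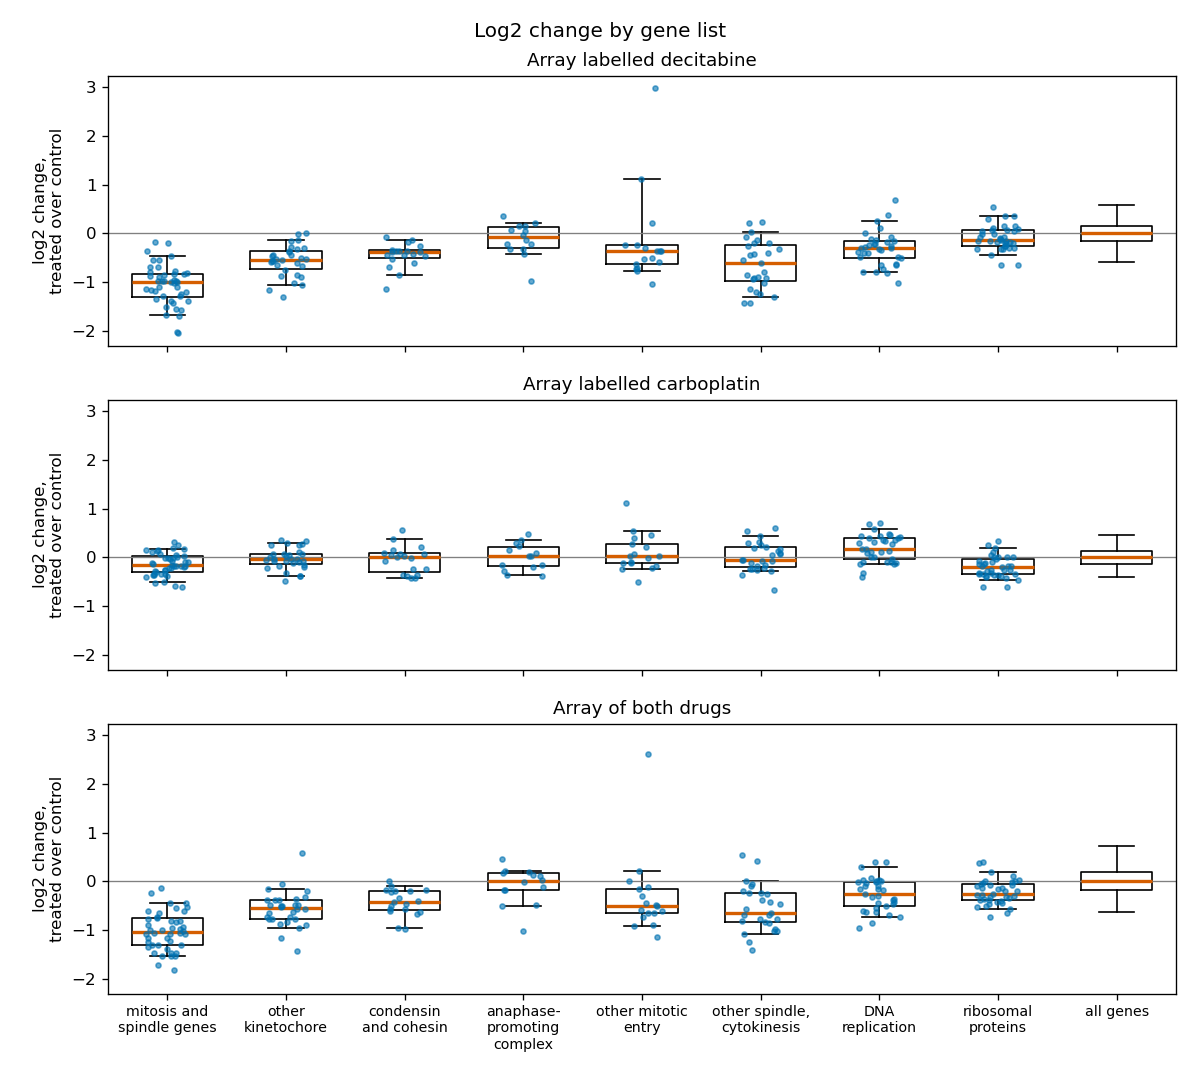
Log2 change by gene list on each array, with 1 point per gene, boxes from the first to the third quartile, an orange line at the median and whiskers from the 5th to the 95th percentile, and all 17446 genes as a box without points. The mitosis and spindle genes have medians of -0.99, -0.16 and -1.04 on the 3 arrays, and the DNA replication genes -0.30, 0.17 and -0.26.

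Genes in the list of the study and those outside it, measured on the same arrays, had similar medians on the arrays labelled decitabine and of both drugs. The 33 measured genes outside that list had 28, 0 and 28 genes lower by 1.5-fold and medians of -0.98, -0.10 and -1.0. The 11 genes in it had medians of -1.0, -0.28 and -1.07. Neither part is independent evidence of direction. The study's list was chosen on these samples, and the list described here was chosen with earlier results of these data known. Of 8 genes with several probes outside the edge columns, all probes had the same sign in 8, 5 and 7 genes, and all were lower by 1.5-fold in 3 genes with both drugs and in 3 on the array labelled decitabine.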

How the data were processed

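RNA of treated YB5 cells (Cy3) was hybridized against RNA of control cells (Cy5) on 3 Agilent arrays of 1 slide. The deposited scanner files hold spot intensity as mean and median pixel values with local background, per the file headers from Feature Extraction 9.5.3.1 (the submitters' processing notes name 8.5.1.1 and R 3.0.2). They also hold a log10 ratio of red over green processed signal, computed by that software before the authors deposited the files. The authors' processed table gives log2 ratios after loess with limma and agilp, and its direction is not stated. Against the scanner values its r over 41000 probes was 0.948, 0.907 and 0.959, and its medians were -0.01, 0 and -0.01, so it was read as treated over control. Its background step is not stated.

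Mean signals were background corrected by normexp (offset 50) and normalized by within-array loess in limma 3.58.1 (R 4.3.3, data.table version 1.17.8, jsonlite 2.0.0). Control spots, outlier spots (114, 103 and 83) and columns 1 to 9 were left out, and loess was fitted without them. Channel signals were scaled between arrays by Aquantile. Spots of a probe were averaged and each gene took its brightest probe. Of 41000 probes, 29381 were named through RefSeq, for 18602 genes. Saturated spots numbered 5, 4 and 1. The steps were tested on simulated data. The list, its groups and the further lists were chosen with earlier results of these data known. Full values were given for the 3 lowest and the highest gene of each role group with both drugs and for CCNB1, CDK1, PLK1, AURKA, AURKB, CDC20, BIRC5, TOP2A, MKI67 and FOXM1 (for AURKB and FOXM1 the changes with edge columns kept alone), and for the 2 lowest and the highest gene of further lists. Other genes named were chosen after their values were seen. CENPC, SGO2 and other renamed genes are given by current symbols. SPC24, MIS18A, RAD21, CDCA5, ANAPC4, PLK2, MCM6, MCM7 and TYMS had no probe used here. Alternatives were edge columns kept, median signals without background subtraction, the scanner software's ratio, median centring, the authors' table, the mean over probes, dim probes out, 2-fold, and, added after seeing the data, the list without the genes in the study's list.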

Additional observations from a re-analysis of the deposited data

How the results depend on the processing

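Under the alternatives other than the 2-fold limit and the smaller list, 36 to 43 genes of the list were lower by 1.5-fold on the array labelled decitabine and as many on the array of both drugs, and the median difference between these arrays stayed between -0.02 and 0.04. Median centring gave medians of -1.46, -0.64 and -1.47 and 25 genes lower on the array labelled carboplatin. It also moved the median of all genes to -0.13, -0.15 and -0.10, and relative to that the medians of the list were -1.33, -0.49 and -1.37. With the scanner software's ratio the medians were -1.10 and -1.12 on the arrays labelled decitabine and of both drugs. In the authors' table they were -1.10, -0.27 and -1.14, with 4 genes lower on the array labelled carboplatin. On that array no gene (0) was lower with the mean over probes, without the genes in the study's list, or at 2-fold, where 21 and 23 genes remained on the arrays labelled decitabine and of both drugs. With edge columns kept, 5 genes were higher on the array labelled decitabine. Counts of all genes lower by 1.5-fold moved over 1.5 times from 855, 250 and 1016 with the scanner software (2043, 1056 and 1950) and median centring (3524, 3215 and 3705), and on the array labelled carboplatin with the authors' table (538) and the mean over probes (145). Of the called values of the 44 genes, 1 changed sign, that of KIF11 on the array labelled decitabine, from -0.69 to 0.34 with edge columns kept, since its brighter probe lies there. Other causes were not tested. No paired analysis was possible because each treatment has 1 array, and no array could be left out for the same reason. Depth is signal over background, and dim second probes limit what can be said of single genes.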
